A study of Mus musculus with 6 samples.

Results

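The kinesin family was described here in 3 arrays of VPA-treated (valproic acid) and 3 arrays of control cells, which the series gives as mouse prostate cancer cells. Members were all genes with the symbol Kif or Kifc followed by a digit, each read from 1 probe set that carried exactly 1 symbol, the one with the highest mean over the 6 arrays. The rule gave 40 of the 19938 genes tested, 39 kinesins and the pseudogene Kif4-ps. Of these, 11 act mainly in mitosis, 10 carry cargo along axons, 7 are other carriers of vesicles and membranes, and 11 work in cilia, in signalling or elsewhere. Kifc1 and Kifc5b, which lie only on a probe set with several symbols, have no value here.

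Every array was an Affymetrix mouse Gene 1.0 ST, and the labels call the 3 samples of a group biological replicates. The values are log2 intensities made by the authors with RMA, and their median over all probe sets lay between 7.15 and 7.18 on every array. VPA, an anticonvulsant drug, inhibits class I histone deacetylases. The sample titles gave the groups. Other fields of the same samples give the VPA samples as undifferentiated stem cells of the strain Stra8-EGFP/Rosa26 and the control samples as differentiated stem cells of the strain 129SV. The groups here rest on the titles, and these fields divide the samples in the same way, so that treatment and the cell source given in them cannot be told apart. How much VPA was given, for how long and to which line is not stated here.

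The prostate identity of the cells could not be established from these values. Probasin (Pbsn) stood at 3.50 in VPA cells and 3.55 in control cells, and Hoxb13 at 7.93 and 7.88, with no detection calls to tell signal from background. Of 8 embryonic stem cell markers none passed the test, though all 8 differences lay below 0, where 58.6% of all genes did. The unadjusted p was under 0.05 for 3 of them (8.3% of all genes were lower at that threshold), Esrrb, Pou5f1 and Sox2. The list's summed linear signal lay between 2494 and 3439 in VPA arrays and between 3345 and 3901 in control arrays, and most of that sum is Sox2. Pou5f1 averaged 5.27 in VPA cells and 5.63 in control cells, while Sox2 averaged 11.26 and 11.58.

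Kinesins are motor proteins that hydrolyse ATP to move along microtubules or to take microtubules apart. Mitotic kinesins build the spindle, move chromosomes and complete cytokinesis, and their transcripts are known to peak in the G2 and M phases of the cell cycle. Transport kinesins carry vesicles, organelles and protein complexes, in neurons mostly outward along the axon. Several transport genes exist as a broadly expressed form and a neuron-enriched form.

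In VPA cells 1 kinesin gene rose, Kif5a, and none fell, whereas 39 did not pass limma's test at an adjusted p under 0.05. The same comparison called 2.34% of all genes tested, 1.71% higher and 0.632% lower. Without adjustment, p was under 0.05 for 14 of the 40 members, 11 of them higher and 3 lower, and for 18.1% of all genes. The 10 axonal transport kinesins all had differences above 0, with a median of 0.46 on the log2 scale. The 11 mitotic kinesins had a median of -0.07, with 8 of them below 0. Over all genes the median difference was -0.035 and 58.6% of genes lay below 0. No test was made between the groups of members, since the genes of a group are not replicates of a condition.

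**Figure D1:**
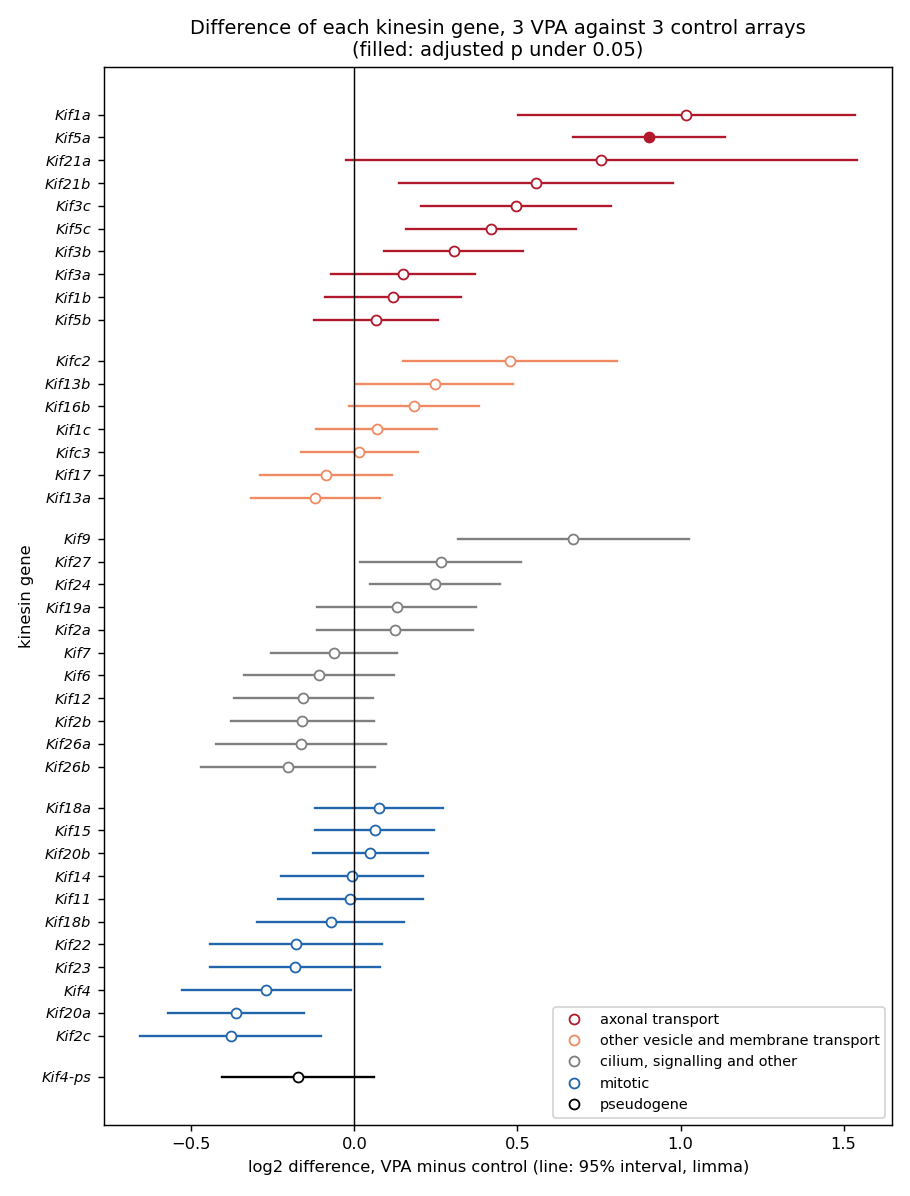
The log2 difference (VPA minus control) of each of the 40 kinesin family genes on the x axis, one gene per line, with its 95% interval from limma, coloured by role. Axonal transport genes all lie to the right of 0, up to 1.02 for Kif1a, and mitotic genes lie between -0.38 and 0.08, with Kif5a the filled point.

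Kif5a encodes a neuron-enriched heavy chain of conventional kinesin, the motor that carries mitochondria, vesicles and neurofilament proteins. Its probe set (10373113, gene at chr10:127225695-127266348, GRCm38.p6) read 9.18, 8.93 and 9.01 in VPA replicates 1, 2 and 3, against 7.98, 8.22 and 8.21 in control replicates 1, 2 and 3. Every VPA array thus lay above every control array. The gene rose 1.87-fold, with a 95% interval of 1.59 to 2.20 and a log2 difference of 0.90 (SE 0.104, 3 arrays a group, adjusted p = 0.00924 in limma). The call held whichever single array was left out, with adjusted p between 0.00776 and 0.0482. It ended when all 35556 probe sets of the table were tested together, at 0.112.

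The other heavy chains of conventional kinesin did not pass. Kif5c, also enriched in neurons (chr2:49619286-49774778), read 10.11, 9.97 and 9.95 in VPA cells, against 9.35, 9.67 and 9.76 in control cells. Its groups did not overlap, and the difference was 0.42 (SE 0.116, adjusted p = 0.0987). Kif5b, the form made in most cell types, read 11.47, 11.56 and 11.56 in VPA cells, against 11.44, 11.39 and 11.55 in control cells. These ranges overlapped, and the interval of the difference of 0.07 ran from -0.12 to 0.26. The platform annotation lists 1 shared transcript record for the Kif5a and Kif5c probe sets, and cross-hybridisation between them was not tested.

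Kif1a, which carries synaptic vesicle precursors along axons (chr1:93015455-93102039), had the largest difference among the 40 members. It read 8.77, 7.83 and 7.76 in VPA cells, against 7.26, 7.01 and 7.05 in control cells. VPA replicate 1 stood well above the other VPA arrays, and the groups did not overlap. The difference was 1.02 (SE 0.231, 2.02-fold, 95% interval 1.41 to 2.90, adjusted p = 0.0555), and Kif1a passed in 5 of 16 settings. Kif1b, its broadly expressed relative that moves mitochondria and synaptic vesicle precursors, read 11.01, 10.82 and 10.79 in VPA cells, against 10.74, 10.83 and 10.70 in control cells. Those arrays overlapped, at a difference of 0.12 (interval -0.09 to 0.33).

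The heterotrimeric kinesin of cilia and axons joins Kif3a to Kif3b, or to the neuron-enriched Kif3c in a separate dimer with Kif3a, and Kif3a with Kif3b binds cargo through the adaptor KAP, made by Kifap3. Kif3c (chr12:3365132-3406494) read 9.82, 9.74 and 9.42 in VPA cells, against 9.02, 9.37 and 9.11 in control cells, a difference of 0.50 (SE 0.129, adjusted p = 0.0852). Kif3b (chr2:153291395-153333390) read 10.27, 10.09 and 10.08 in VPA cells, against 9.74, 9.84 and 9.94 in control cells, a difference of 0.30 (SE 0.0949, adjusted p = 0.133). Neither passed, although VPA lay above control on all arrays for both. Kif3a overlapped between the groups, at 10.62, 10.67 and 10.46 in VPA cells, against 10.57, 10.38 and 10.35 in control cells (difference 0.15, interval -0.07 to 0.37).

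The adaptor gene Kifap3 rose 1.49-fold (log2 0.58, SE 0.107, limma adjusted p = 0.0287). It read 9.91, 9.94 and 9.93 in VPA cells, against 9.12, 9.45 and 9.47 in control cells, so the VPA arrays were nearly equal and all lay above the controls. In 11 of 16 settings Kifap3 passed. It did not pass without VPA replicate 1, VPA replicate 2, control replicate 1 or control replicate 3 (adjusted p 0.104, 0.109, 0.0927 or 0.0634), and at 0.166 with all probe sets tested.

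Kif21a and Kif21b encode motors that regulate microtubule growth and travel in axons and dendrites. Kif21b read 7.88, 7.49 and 7.02 in VPA cells, against 6.89, 7.06 and 6.76 in control cells, a difference of 0.56 (SE 0.187, adjusted p = 0.159). Kif21a read 8.72, 8.45 and 7.22 in VPA cells, against 7.58, 7.65 and 6.88 in control cells, a difference of 0.76 (SE 0.348, adjusted p = 0.289). Leaving out 1 array moved the Kif21a difference between 0.46 (without VPA replicate 1) and 1.21 (without VPA replicate 3, adjusted p = 0.0186). For both genes VPA replicate 3 lay among the controls, while VPA replicates 1 and 2 lay above them. Kif21a had the widest spread of the family, with an SD of 0.80 in VPA cells and 0.43 in control cells.

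Within pairs of related genes, the per-array log2 ratio was compared to see whether the neuron-enriched form differed from its partner. The ratio of Kif5a to Kif5b was 0.84 higher in VPA than in control arrays (SE 0.134, n = 3 per group) and that of Kif1a to Kif1b 0.90 higher (SE 0.275), and neither ratio overlapped between the groups. The ratio of Kif3c to Kif3a was 0.35 higher (SE 0.17), with overlap. The exact two-sided permutation test gave p = 0.1, 0.1 and 0.2 for these 3 pairs, or 0.15, 0.15 and 0.2 after Benjamini-Hochberg adjustment. The smallest p that 3 against 3 arrays allow is 0.1, so the test could not pass. Kif3c was set against Kif3a, with which it forms a dimer, and not against Kif3b, the alternative to Kif3c. Kif3b had the larger difference from control, 0.30 against 0.15 for Kif3a. Kif5c was not set against Kif5b.

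**Figure D2:**
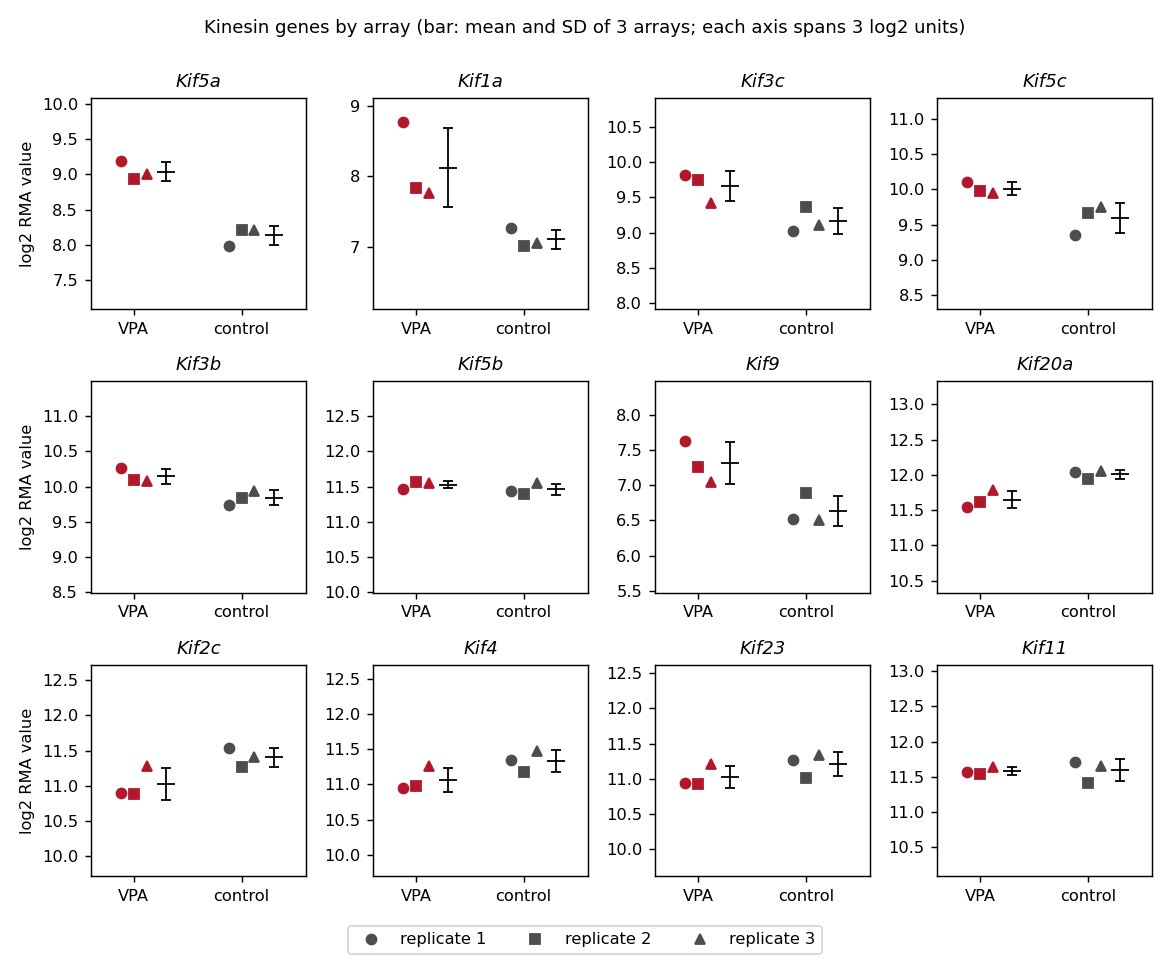
Log2 RMA values (y axis) of 12 kinesin genes in the 3 VPA arrays (left, red) and the 3 control arrays (right, grey), with marker shapes for replicate numbers and bars for the mean and SD. The VPA points lie above all control points for Kif5a, Kif1a, Kif3c, Kif5c, Kif3b and Kif9, and below them for Kif20a.

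Of the 10 axonal transport genes, 6 were higher at an unadjusted p under 0.05, where 9.82% of all genes were, and 5 had all VPA arrays above all control arrays, where 11.1% of all genes did. VPA replicates 1 and 2 lay above the control mean for 10 of the 10 genes and VPA replicate 3 for 9 of the 10. Relative to each gene's mean over the 6 arrays, the group's median was 0.36, 0.19 and 0.04 in VPA replicates 1, 2 and 3, against -0.27, -0.13 and -0.23 in control replicates 1, 2 and 3. VPA replicate 3 and control replicate 2 therefore lay closest to the other group. Without VPA replicate 3 the kinesins called were 7 higher (Kif5a, Kif1a, Kif3c, Kif21a, Kif21b, Kif9 and Kifc2) and 2 lower (Kif20a and Kif2c), with 4.09% of all genes called. Without control replicate 2 they were Kif5a and Kif9, with 2.58% of all genes called.

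Some markers of neurons were also higher in VPA cells. Of 15 neuronal markers measured, 5 rose, none fell and 10 did not pass, where 1.71% of all genes were called higher and 0.632% lower. The list was chosen with earlier results of these data known, and Syn1 had the largest difference of all genes tested (1.85). These counts are therefore no independent support. VPA lay above control on all arrays for 7 markers and below for 2, Elavl4 and Rbfox3, where 11.1% and 12% of all genes did. The summed linear signal of the list lay between 4463 and 6081 in VPA arrays, against 2822 and 3226 in control arrays. Most of that sum is the 5 genes that rose, so it says little of the other 10. Gap43, a growth cone protein, rose 2.38-fold (adjusted p = 0.00897), and Syn1, Uchl1, Stmn2 and Map2 also rose. Gap43 passed in 15 of 16 settings. Each of the other 4 passed in 11 and missed the threshold with all probe sets tested and without VPA replicate 1, VPA replicate 2, control replicate 1 or control replicate 3. Without VPA replicate 1, for example, the adjusted p was 0.058 for Syn1, 0.0571 for Uchl1, 0.058 for Stmn2 and 0.155 for Map2. Rbfox3, the antigen NeuN of mature neurons, averaged 6.52 in VPA cells and 6.66 in control cells, and Snap25, of the synaptic fusion machinery, averaged 6.42 and 6.41. The part of these markers in the kinesin differences was not tested, and in bulk RNA a change in the share of cells of a type cannot be told apart from a change in RNA per cell.

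Cargo adaptors and partners of the transport kinesins and of dynein, the motor that runs the other way, formed a list of 28 genes, 25 of them measured. Kifap3 rose and the other 24 did not pass, with a median difference of 0.10. The unadjusted p was under 0.05 for 7 of the 25, all higher, where 9.82% of all genes were. Mapk8ip1, the JIP1 scaffold that links conventional kinesin to its cargo, read 9.60, 9.30 and 9.01 in VPA cells, against 8.57, 8.81 and 8.55 in control cells. The groups did not overlap, at a difference of 0.66 (SE 0.146, adjusted p = 0.0515). The related scaffold gene Mapk8ip2 differed by 0.37 and Fez1, a kinesin adaptor of axons, by 0.26 (adjusted p 0.0842 and 0.126). The kinesin light chain genes Klc1, Klc3 and Klc4 differed by 0.01, -0.04 and 0.18, and the dynein heavy chain gene Dync1h1 by -0.05.

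Sequences of 250 bases before to 50 after the annotated start site (RefSeq, GRCm38.p6) were found for 31 of the 40 members, 4 of which have more than 1 such window. The windows of Kif5c, Kif3c and Kif3b are shown as examples of axonal transport genes that did not overlap between the groups and have 1 window each. Capitals mark CCAAT boxes and the letters TTTGAA of the cell cycle homology region (CHR), on either strand.
Kif5c (chr2:49619036-49619335, plus strand): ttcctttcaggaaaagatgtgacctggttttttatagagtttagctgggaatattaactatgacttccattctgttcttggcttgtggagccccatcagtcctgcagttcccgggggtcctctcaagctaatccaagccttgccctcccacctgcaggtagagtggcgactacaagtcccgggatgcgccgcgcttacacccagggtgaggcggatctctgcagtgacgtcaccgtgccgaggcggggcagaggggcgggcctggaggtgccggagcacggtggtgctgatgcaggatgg
Kif3c (chr12:3364882-3365181, plus strand): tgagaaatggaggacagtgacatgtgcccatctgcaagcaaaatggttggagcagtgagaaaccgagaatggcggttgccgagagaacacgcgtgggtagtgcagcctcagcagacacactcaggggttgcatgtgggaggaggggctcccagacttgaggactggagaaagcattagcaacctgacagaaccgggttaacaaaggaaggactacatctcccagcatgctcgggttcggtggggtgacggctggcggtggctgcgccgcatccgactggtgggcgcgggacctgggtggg
Kif3b (chr2:153291166-153291465, plus strand): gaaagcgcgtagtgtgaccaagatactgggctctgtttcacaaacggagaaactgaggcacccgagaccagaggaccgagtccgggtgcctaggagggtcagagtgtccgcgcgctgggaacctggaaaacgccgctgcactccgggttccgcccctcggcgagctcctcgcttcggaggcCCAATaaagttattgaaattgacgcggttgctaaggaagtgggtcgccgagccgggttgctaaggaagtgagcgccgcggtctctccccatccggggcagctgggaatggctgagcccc
Of these 3 windows, that of Kif3b has a CCAAT box and none has the letters TTTGAA. Kif1a, and Kif16b of the other carriers of vesicles and membranes, also did not overlap and are not shown. For Kif5a, the gene that rose, no window was found. The window of Kif16b and 1 of the 2 windows of Kif1a lack TTTGAA, and the other window of Kif1a holds it. The window of Kif3b held 62% G and C and 26 CpG pairs, and that of Kif5c 58% and 14.

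Among the 7 other carriers of vesicles and membranes, none passed the test, 2 were higher at an unadjusted p under 0.05 (9.82% of all genes were), and the median difference was 0.07. Kifc2, a motor of neuronal transport that moves toward microtubule minus ends, read 8.37, 8.43 and 7.89 in VPA cells, against 7.64, 7.93 and 7.69 in control cells. Only VPA replicate 3 lay within the control range, and the difference was 0.48 (SE 0.146, adjusted p = 0.128). Kif13b, which carries signalling lipids and receptors, read 9.44, 9.31 and 9.12 in VPA cells, against 9.002, 9.17 and 8.96 in control cells (difference 0.25, adjusted p = 0.265). Kif16b, of early endosomes, differed by 0.18 with no overlap between the groups. The endosomal motor gene Kif13a, the dendritic motor gene Kif17, Kif1c and Kifc3 differed by between -0.12 and 0.07.

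Of the 11 kinesins of cilia, signalling and other tasks, none passed the test and 3 were higher at an unadjusted p under 0.05, where 9.82% of all genes were. Kif9, a motor of motile cilia and flagella (chr9:110476738-110525174), read 7.63, 7.26 and 7.04 in VPA cells, against 6.51, 6.88 and 6.51 in control cells. The groups did not overlap, and the difference was 0.67 (SE 0.158, 1.59-fold, adjusted p = 0.0619), which passed in 7 of 16 settings. Kif24, which restrains cilium assembly at the centriole, read 8.58, 8.40 and 8.38 in VPA cells, against 8.23, 8.23 and 8.16 in control cells, without overlap (difference 0.25, adjusted p = 0.185). Kif27, a relative of the Hedgehog regulator Kif7, differed by 0.26 (adjusted p = 0.242), with overlap.

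Kif7 itself differed by -0.06 (interval -0.25 to 0.13). Kif2a, which takes microtubules apart in neurons and in the spindle, differed by 0.13. Kif2a and Kif2b, which differed by -0.16, were not counted among the mitotic kinesins. The remaining 6 genes of cilia, signalling and other tasks, Kif2b, Kif6, Kif12, Kif19a, Kif26a and Kif26b, differed by between -0.20 and 0.13, and the pseudogene Kif4-ps by -0.17. All 6 and the pseudogene overlapped between the groups.

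**Figure D3:**
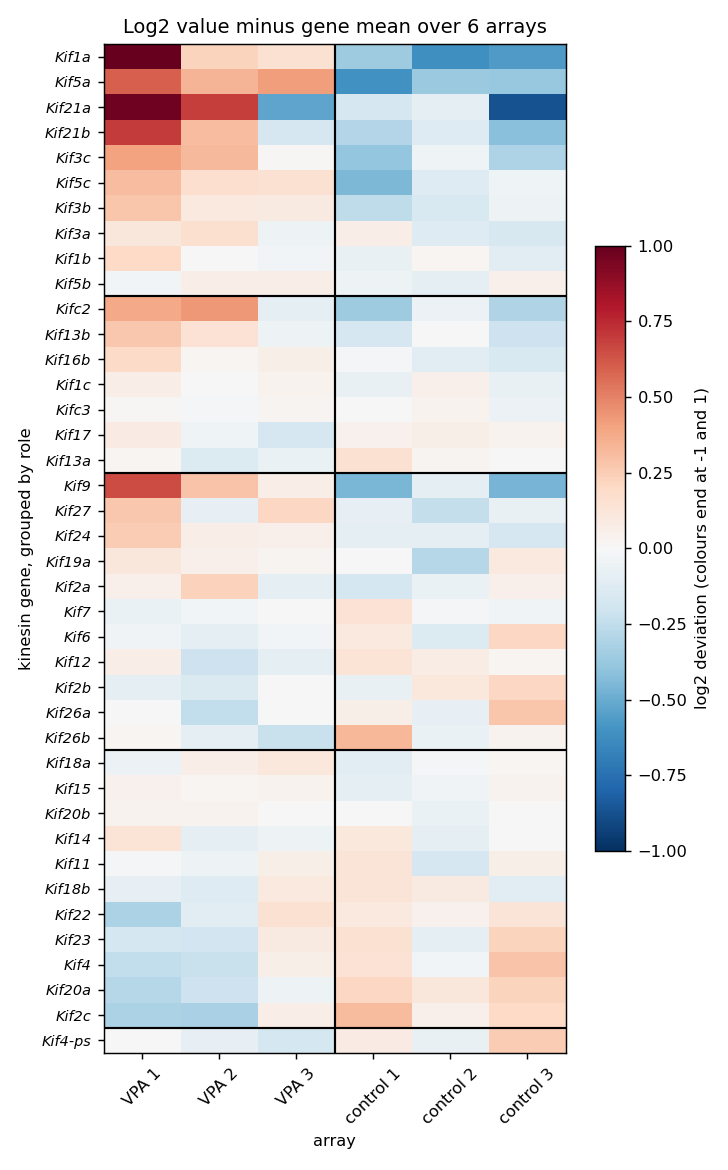
Log2 value of each of the 40 genes minus its mean over the 6 arrays (colour, ending at -1 and 1), with genes grouped by role down the page and the 3 VPA arrays left of the 3 control arrays. The upper block of axonal transport genes is mostly red in VPA replicates 1 and 2 and mostly blue in the controls, and VPA replicate 3 is paler.

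Mitotic kinesins showed smaller differences. None of the 11 passed limma's test, 3 were lower at an unadjusted p under 0.05 (Kif20a, Kif2c and Kif4), where 8.3% of all genes were, and 0 were higher. In VPA cells 1 of them, Kif20a, lay below control on every array, where 12% of all genes did, and 1, Kif20b, lay above. Relative to each gene's mean, the group's median was -0.08, -0.10 and 0.06 in VPA replicates 1, 2 and 3, against 0.13, -0.02 and 0.06 in control replicates 1, 2 and 3. VPA replicate 3 was thus as high as control replicate 3 and above control replicate 2. The median difference of -0.07 was -0.14 without VPA replicate 3, -0.12 without control replicate 3, and -0.03 without VPA replicate 2 or control replicate 1. Over all genes the median was -0.035, and -0.015 without VPA replicate 2 and -0.024 without control replicate 1.

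Kif20a and Kif23 encode motors of the central spindle that serve cytokinesis. Kif20a read 11.54, 11.62 and 11.78 in VPA cells, against 12.03, 11.94 and 12.05 in control cells, so that all VPA arrays lay below all controls. The difference was -0.36 (SE 0.0925, interval -0.57 to -0.15, adjusted p = 0.0795), and it passed in 4 of 16 settings. Kif23 read 10.94, 10.93 and 11.21 in VPA cells, against 11.27, 11.02 and 11.34 in control cells. Its groups overlapped through VPA replicate 3 and control replicate 2 (difference -0.18, interval -0.44 to 0.08). Kif20b, a relative of Kif20a that also acts in cytokinesis, differed by 0.05 with an SD of 0.02 in VPA cells and 0.04 in control cells.

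Kif2c, or MCAK, takes microtubules apart at the centromere and corrects wrong attachments (chr4:117159633-117182624). It read 10.90, 10.89 and 11.28 in VPA cells, against 11.53, 11.27 and 11.41 in control cells. VPA replicate 3 lay just above control replicate 2, and the difference was -0.38 (SE 0.124, adjusted p = 0.149). Kif4, a chromosome-bound motor that acts with the microtubule bundler PRC1 (chrX:100626065-100727271), read 10.95, 10.97 and 11.26 in VPA cells, against 11.34, 11.17 and 11.48 in control cells. The groups overlapped, at a difference of -0.27 (SE 0.116, adjusted p = 0.258). Kif22, which pushes chromosome arms outward, differed by -0.18 (interval -0.44 to 0.08).

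The motors that slide spindle poles apart showed little difference. Kif11, or Eg5, which is essential for a bipolar spindle, read 11.57, 11.54 and 11.64 in VPA cells, against 11.71, 11.42 and 11.65 in control cells. The VPA arrays lay within the control range, and the interval of the difference of -0.01 ran from -0.23 to 0.21. Kif15, which can take the place of Kif11, differed by 0.06 (interval -0.12 to 0.24). Kif18a and Kif18b, which limit the length of spindle microtubules, differed by 0.08 and -0.07, and Kif14, a motor of the midbody, by -0.01.

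The list of 28 partners of mitotic kinesins, kinases, checkpoint genes and regulators held 27 measured genes. None passed limma's test, 7 were lower at an unadjusted p under 0.05 while 0 were higher, and the median difference was -0.16. Over all genes 8.3% were lower and 9.82% higher at that threshold, with a median of -0.035. Plk1, the mitotic kinase that docks on Kif20a, read 10.83, 11.02 and 11.30 in VPA cells, against 11.60, 11.31 and 11.42 in control cells (difference -0.39, SE 0.129, adjusted p = 0.149). Its highest VPA array came just under its lowest control array. Aurka, the kinase of the spindle poles, differed by -0.32, Incenp, of the chromosomal passenger complex, by -0.22, and Cenpe, a kinetochore kinesin without a Kif symbol, by -0.23. Their adjusted p were 0.167, 0.189 and 0.205, and none overlapped between the groups. These genes were named for their small p, which favours groups that do not overlap. Of the 27 genes, VPA lay below control on all arrays for 10 and above for 1, where 12% and 11.1% of all genes did. Tpx2 and Racgap1, the partner of Kif23, differed by 0.01 and 0.00.

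**Figure D4:**
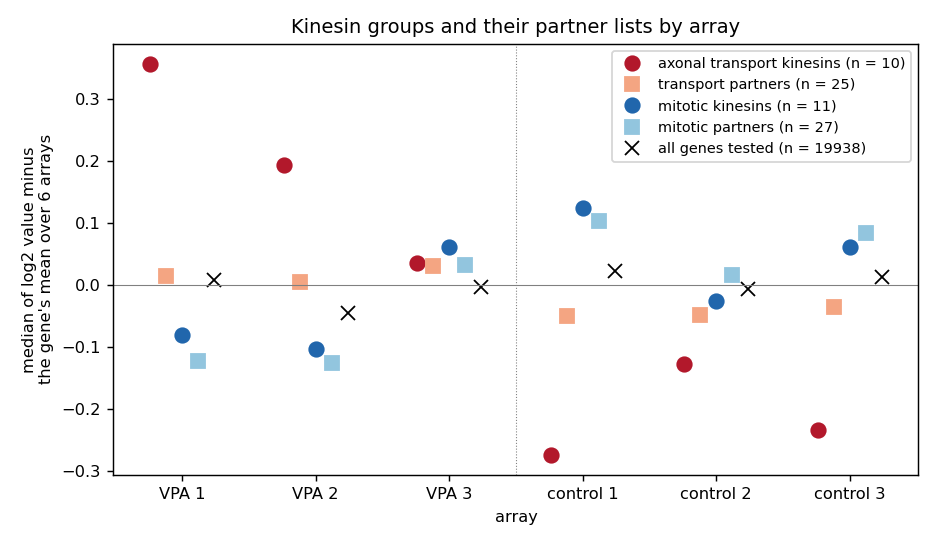
For each array on the x axis, the median over a list's genes of the log2 value minus the gene's mean over the 6 arrays (y axis), with circles for the 2 kinesin groups, squares for their partner lists and crosses for all 19938 genes. Axonal transport kinesins lie at 0.04 to 0.36 in VPA arrays and at -0.27 to -0.13 in control arrays, whereas mitotic kinesins and their partners in VPA replicate 3 lie among the controls.

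Promoter windows of the mitotic kinesins shared the letters of the CHR, the element through which the DREAM complex and MYB-MuvB control genes of late cell cycle phases. A window was found for 10 of the 11 genes. Kif20a, the mitotic kinesin with all VPA arrays below all controls, had no window. Of the 10, 9 held TTTGAA on either strand, against 17.3% of the 15614 tested genes with a window. Among 7 axonal transport genes with a window, 1 held it (Kif1a, in a second window at a start inside the gene). Among the 9, the windows of Kif14 and Kif2c also belong to a start inside the gene. A CCAAT box, searched as CCAAT and ATTGG, was present in 6 of the 10, against 3 of the 7 and 41.7% of all. The letters TTTGGCGC or TTTCCCGC of an E2F site, on either strand, were present in 2 of the 10, in 0 of the 7 and in 2.56% of all, and a GC box (GGGCGG, either strand) in 6 of the 10, 5 of the 7 and 52.9%. In 7 of the 10 mitotic genes a TTTGAA began within 25 bases of the start site, in 0 of the 7 axonal genes and in 2.45% of all, a distance chosen after the positions were seen. These matches are descriptions of the letters and do not show that a factor binds. The mitotic members were chosen by function, and the values did not enter the search.

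The full window of Kif4 is shown with CCAAT boxes and TTTGAA in capitals on either strand. It is followed by 46 bases around the match nearest the start site in 7 other mitotic genes, with TTTGAA or TTCAAA in capitals. Kif14, which also holds a match, is not shown.
Kif4 (chrX:100625815-100626114, plus strand): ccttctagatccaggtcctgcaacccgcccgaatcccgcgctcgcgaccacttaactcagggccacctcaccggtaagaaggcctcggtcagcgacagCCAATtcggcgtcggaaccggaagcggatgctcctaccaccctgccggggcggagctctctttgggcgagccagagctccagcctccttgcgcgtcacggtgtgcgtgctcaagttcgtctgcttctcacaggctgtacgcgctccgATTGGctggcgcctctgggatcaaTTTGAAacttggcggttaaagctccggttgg
Kif2c (chr4:117178850-117178895, minus strand): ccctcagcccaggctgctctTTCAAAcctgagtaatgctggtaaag
Kif23 (chr9:61946772-61946817, minus strand): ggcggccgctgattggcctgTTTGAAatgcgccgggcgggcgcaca
Kif22 (chr7:127042412-127042457, minus strand): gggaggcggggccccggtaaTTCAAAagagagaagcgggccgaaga
Kif18b (chr11:102925096-102925141, minus strand): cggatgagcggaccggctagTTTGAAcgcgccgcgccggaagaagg
Kif11 (chr19:37376343-37376388, plus strand): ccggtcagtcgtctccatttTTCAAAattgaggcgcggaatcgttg
Kif15 (chr9:122951042-122951087, plus strand): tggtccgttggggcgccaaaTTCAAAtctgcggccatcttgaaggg
Kif20b (chr19:34922345-34922390, plus strand): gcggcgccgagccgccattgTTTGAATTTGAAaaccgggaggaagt
With the start site as position 1, the match begins at position 20 in Kif4 and at positions 3, 4 and 8 in Kif23, Kif18b and Kif20b. In Kif11, Kif15 and Kif22 the reverse letters begin at positions -19, -19 and -17. Kif20b holds the letters in a direct repeat. Kif14 has its match at position -228 of a window that belongs to a start inside the annotated gene. Kif2c has its match at position -103 of a window that likewise belongs to a start inside the annotated gene. Whether these letters or their positions bear on the differences was not tested.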

How the data were processed

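Total RNA (Trizol, DNase I) was labelled with biotin, 300 ng per sample, for Affymetrix mouse Gene 1.0 ST arrays, per the labels' protocols. The authors deposited log2 values. The submitters' processing notes name RMA and Affymetrix Expression Console, without versions or a genome build. RMA forces the arrays to one distribution, which hides a shift of most genes, and gives no detection call.

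The platform annotation gave 1 symbol to 21789 of 35556 probe sets, several to 1621, and did not list 12146. A lookup of Entrez identifiers in RefSeq (GRCm38.p6) found 21698 and altered 0 symbols. The probe set with the highest mean was kept for each of 19938 genes. VPA was compared with control in limma 3.58.1 (lmFit, then eBayes; R 4.3.3), as a two-sided test with no covariate and with Benjamini-Hochberg adjustment over all genes and a threshold of 0.05. The fit was tested on simulated data. The 3 arrays per group limit the precision. Each p-value sets a difference against the spread between the arrays of a group, which eBayes draws toward that of all genes.

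Members, gene lists and tests were chosen with earlier results of these data known. All members could be named. In depth come those with an unadjusted p under 0.05 and the main motors of each role, and from the partner lists the genes that passed and those with the smallest p, up to 4. The marker genes, and Klc1, Klc3, Klc4, Dync1h1, Tpx2 and Racgap1, were named after their values were seen. Alternatives were leaving out arrays, weighting arrays, averaging the probe sets of a gene, testing the whole table of probe sets, blocking on replicate number, a trended and robust prior, centring on medians, repeating quantile normalization, and dropping genes under a log2 value of 6 in more than 3 arrays.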

Additional observations from a re-analysis of the deposited data

How the results depend on the processing

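Kif5a stayed past the threshold in 15 of 16 settings, with differences from 0.83 to 0.96. The count of kinesins higher with VPA, 1 in the main comparison, was 3 with the filter on low values, 2 with the trended and robust prior, 4 with array weights, 0 with all probe sets tested (where limma's unadjusted p was under 0.05 for 9 higher and 2 lower) and from 1 to 7 when 1 array was left out. The count lower, 0 in the main comparison, was 1 with the trended and robust prior and from 0 to 2 when 1 array was left out. With control replicate 2 and VPA replicate 3 both left out, 7 were higher and 3 lower, and the median of the axonal transport kinesins was 0.60. For the axonal transport kinesins these arrays lay closest to the other group, so a wider difference was built into that choice and is no separate support. This setting is 1 of the 16, and the counts of settings passed include it. Over all genes, 341 higher and 126 lower became 534 higher with array weights, 2 higher and 0 lower with all probe sets tested, 989 and 360 without those 2 arrays, and 15 to 595 higher and 5 to 220 lower when 1 array was left out. The fewest came without control replicate 1 and the most without VPA replicate 3. The axonal median ranged from 0.36 to 0.53 and the mitotic median from -0.14 to -0.03 when 1 array was left out, and each kept its sign in all 16 settings. The median over all genes was below 0 in all 16 settings too, so the sign of the mitotic median does not set it apart. Without control replicate 1 the mitotic median was -0.0273, against -0.0241 over all genes.

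With the replicate number as a block, 7 kinesins were higher and 1 lower, with 827 and 372 over all genes. Samples with the same number correlated at 0.0841, 0.451 and 0.284 in their deviations from the group means. Each VPA array correlated best with the control of its own number, as did control replicates 2 and 3 with theirs. Control replicate 1 correlated best with VPA replicate 3, at 0.2. Whether the numbers pair the samples was not settled, and the main comparison left them unpaired.

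Differences close to 0 changed sign in 11 cases over 4 genes, none of them called. Kifc3 was at -0.0447 with quantile normalization a second time, -0.0051 with centred arrays and -0.0108 without control replicate 3. With the mean of probe sets Kif14 was at 0.0105 and Kif6 at 0.0258. Leaving out 1 array gave Kif14 from -0.0762 to 0.043, with 0.0378 and 0.0149 also above 0, Kif11 from -0.0999 to 0.0474, with 0.0108 and 0.0156 also above 0, and Kifc3 up to 0.0358. The cause was not tested. Without detection calls, low signals cannot be told from background.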

Other observations

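Of the 40 members, 6 had a second probe set with 1 symbol that was not used for the results. The unused probe sets of Kif1c, Kif26b and Kif4-ps had differences of the same sign as the used ones, at 0.11, -0.09 and -0.10 against 0.07, -0.20 and -0.17. Those of Kif14, Kif7 and Kif6 had the opposite sign, at 0.03, 0.03 and 0.16 against -0.01, -0.06 and -0.11. None of the 12 probe sets had an unadjusted p under 0.05 in limma.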
